A study of Homo sapiens with 2 samples.

Results

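The mRNAs of 10 heterogeneous nuclear ribonucleoprotein (hnRNP) genes were followed through the RNA fragments that crosslinked to RBM47. The genes were HNRNPA1, HNRNPA2B1, HNRNPA3, HNRNPC, HNRNPD, HNRNPH1, HNRNPH3, HNRNPK, HNRNPM and HNRNPU, chosen by symbol among the 7712 gene IDs of the cluster table. All 10 were found, each under 1 ID and on 1 strand, with 403 of the 233546 deposited clusters. The cells were MDA231-BrM2a, a non-clonal population derived from the MDA-MB-231 breast cancer line that forms brain metastases. The transgene was wild-type RBM47 with a Flag tag, driven by a promoter that doxycycline switches on, and induction was with doxycycline at 1 ng/ml over 3 days. The protein measured was thus an introduced, tagged copy. There was 1 group of 2 replicates, both induced, and neither the labels nor the methods state that they were separate cultures. The spread between them may therefore be technical.

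The hnRNPs are abundant nuclear proteins that coat nascent transcripts. They take part in splicing, export, stability and translation of mRNA, and several of them bind the transcripts of their own genes. RBM47 is itself an RNA-binding protein with RNA recognition motifs, related to hnRNP Q. In HITS-CLIP, ultraviolet light joins a protein to the RNA that it touches, the protein is immunoprecipitated, and the RNA fragments that remain attached are sequenced. Unique fragments are called tags, and overlapping tags form a cluster. Each hnRNP cluster had been labelled as 3'UTR, intron, coding sequence (CDS), 5'UTR, unclassified exon or a combination of these. Positions below are those of the table, in the hg18 build that the submitters' processing notes name.

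Summed over the table, replicate 1 gave 999047 tags and replicate 2 gave 3489697, so single clusters were counted less precisely in replicate 1. These sums are not library depths, because no deposited cluster has fewer than 5 tags in total or lacks a tag in either replicate. The deposited total was below the sum of the replicates in 64 of the 403 hnRNP clusters, by 103 tags together. Values per gene below use the deposited total and the 237 hnRNP clusters with at least 10 tags, unless all clusters are named. No control library was analysed here and the level of the mRNAs was not measured. More binding per transcript, more transcript per cell and more cells that express it cannot be told apart.

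The 10 genes together held 8206 tags. Replicate 1 had 1.77 and replicate 2 had 1.87 hnRNP tags per 1000 tags of its column, a mean of 1.82 ± 0.065 (SD, n = 2). The hnRNP clusters made up 0.283% of the tags in clusters assigned to genes. Of the 10 genes, 9 had more than 100 tags, and HNRNPM, with 65 tags, did not. Among the 5600 genes with a cluster of at least 10 tags, 54.9% had more than 100. With replicate 1 alone, fewer tags were set against the same limits. Then 4 of the 9 hnRNP genes with a cluster of at least 10 tags had more than 100 tags. The same was true of 32.9% of the 2416 genes with such a cluster. On the deposited totals, the median was 566 tags per hnRNP gene and 127 over the 5600 genes. The hnRNP genes ranked from 237 to 3557 by tags, with a median rank of 1160.5. These tag numbers are not corrected for transcript length.

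**Figure D1:**
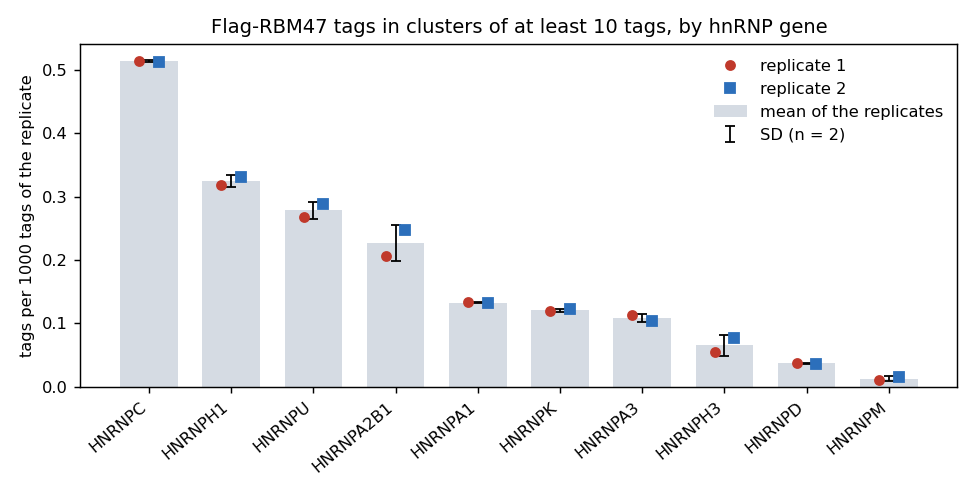
Tags per 1000 tags of each replicate (vertical axis) for each hnRNP gene, in clusters of at least 10 tags and not corrected for length. Bars are means and error bars SD of the 2 replicates, shown as a circle and a square. The replicates of HNRNPC sit at 0.514 and 0.513, those of HNRNPM at 0.0100 and 0.0158.

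Levels were compared between genes per kb of the canonical GENCODE transcript, as tags per 1000000 tags of a replicate per kb. The cluster labels are the authors' own, so labels and lengths may come from different transcript models. HNRNPH1 had the highest exon density, with 87.1 in replicate 1 and 99.7 in replicate 2. HNRNPA2B1 followed with 52.4 and 63.3, HNRNPC with 53.8 and 50.3, HNRNPU with 38.6 and 41.1, and HNRNPK with 36.7 and 39.3. HNRNPA2B1 and HNRNPC overlapped between their replicates, and so did HNRNPU and HNRNPK. The HNRNPC exon density includes clusters labelled 5'UTR or unclassified exon, and its 5'UTR clusters extend over 1361 nt. The canonical HNRNPC transcript is 3165 nt long, of which 2076 nt are 3'UTR. Part of these tags may thus lie outside the exons used as length, and the place of HNRNPC may rest on them. Below them were HNRNPH3 with 19.1 and 28.1, HNRNPA3 with 19.8 and 18.1, HNRNPA1 with 16.0 and 14.8, and HNRNPD with 10.1 and 10.2. HNRNPH3 and HNRNPA3 overlapped. The HNRNPA1 exon density leaves out 6 clusters labelled intron that lie beyond its last 3'UTR cluster. Counted as exon, they raise it to 35.6 and 35.2, below HNRNPK and above HNRNPH3. HNRNPM was lowest with 2.42 and 5.55, below every other member in both replicates. On the deposited totals, the median exon density of the hnRNP genes was 143 tags per kb, and it was 25.3 over the 5312 genes with a transcript length.

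The order by intron density was another one. HNRNPA1 came first with 27.9 and 29.1 intron tags per 1000000 tags per kb of intron, then HNRNPH1 with 17.0 and 14.9, HNRNPC with 6.03 and 6.18, and HNRNPA2B1 with 2.23 and 2.47. HNRNPK had 1.41 and 0.992, HNRNPH3 had 0.799 and 0.980, and HNRNPU had 0.407 and 0.699. HNRNPD had 0.326 and 0.280, HNRNPM had 0.0961 and 0.0481, and HNRNPA3 had no intron cluster of at least 10 tags. No neighbours in this order overlapped between their replicates. The first place of HNRNPA1 rests on the 6 clusters beyond its 3'UTR, without which it has 0 intron tags and joins HNRNPA3 at the end of the order. The intron label of those clusters is the authors', and the intron length is that of the GENCODE transcript, which may differ from the authors' model. On the deposited totals, the intron density was 129 tags per kb in HNRNPA1 (0 without those clusters), 67.7 in HNRNPH1 and 27.1 in HNRNPC. The median was 4.22 over the hnRNP genes and 0 over the 5229 genes with an intron length.

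**Figure D2:**
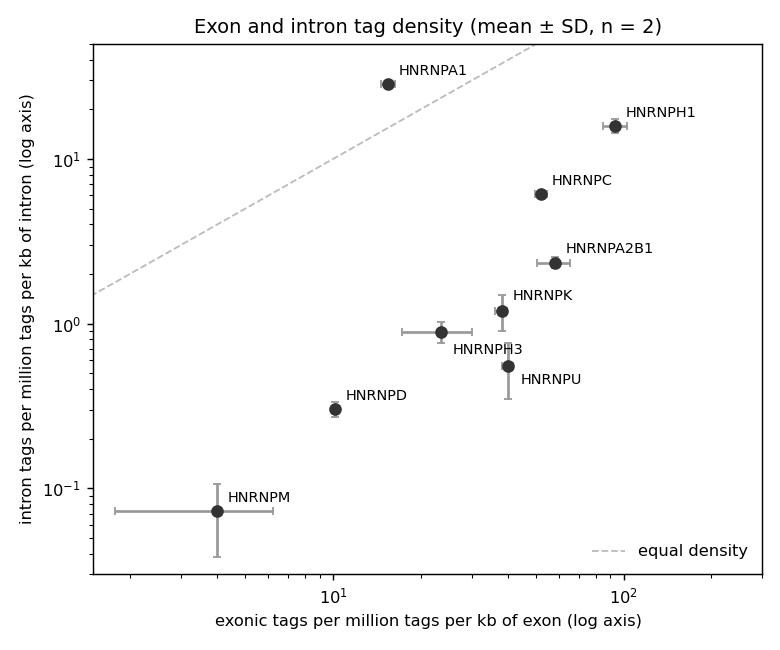
Exon tags per 1000000 tags per kb of exon (horizontal log axis) against intron tags per 1000000 tags per kb of intron (vertical log axis) for the 9 hnRNP genes with intron tags, as mean ± SD of 2 replicates. HNRNPA1 alone lies above the dashed line of equal density, through 6 clusters beyond its 3'UTR, without which it has 0 intron tags and would not be plotted, and HNRNPH1 is highest in exon density.

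The location of the tags varied from gene to gene. Over the family, 42.4% of replicate 1 tags and 42.9% of replicate 2 tags were in 3'UTR clusters, a mean of 42.6% ± 0.338 (SD, n = 2). Intron clusters held 33.2% and 31.4%, with a mean of 32.3% ± 1.33, and CDS clusters held 11.2% and 12.9%, with a mean of 12.1% ± 1.17. Over all genes the means were 47.1% ± 0.358 in 3'UTRs, 18.9% ± 0.539 in introns and 10.1% ± 0.178 in CDS. When a cluster was counted in every region that its label names, the CDS share on the deposited totals was 20.0% in the hnRNP genes and 22.8% over all genes, so that the order turned. Clusters in 5'UTRs held 3.04% ± 0.223 of the hnRNP tags and 0.393% ± 0.0120 of the tags of all genes. Clusters with several labels held 7.77% ± 0.585 of the hnRNP tags and 16.8% ± 0.0452 over all genes. Unclassified exons held 2.22% ± 0.185 and 6.63% ± 0.0298. The shares by single label thus leave out unlike parts of the tags, and the count in every named region is given over all genes for CDS only. HNRNPC carried most of the intron tags. Without it, on the deposited totals, the family's intron share went from 31.6% to 17.5% and its 3'UTR share from 42.9% to 53.6%, and its 5'UTR share from 3.12% to 1.74%. With clusters of at least 30 tags, the intron share was 20.7%.

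Intron tags exceeded 3'UTR tags in 3 of the 10 genes, HNRNPA1, HNRNPC and HNRNPH1. The same was true of 20.3% of the 5181 genes with tags in either region, and of 18.0% of the 2991 such genes with more than 100 tags. In the other 7 hnRNP genes the 3'UTR held more tags than the introns. When clusters under 10 tags were included the number was 4, because HNRNPD had 172 intron tags and 99 tags in its 3'UTR clusters. The share over all genes at that setting is not given here, so the 4 cannot be set against the 20.3%.

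**Figure D3:**
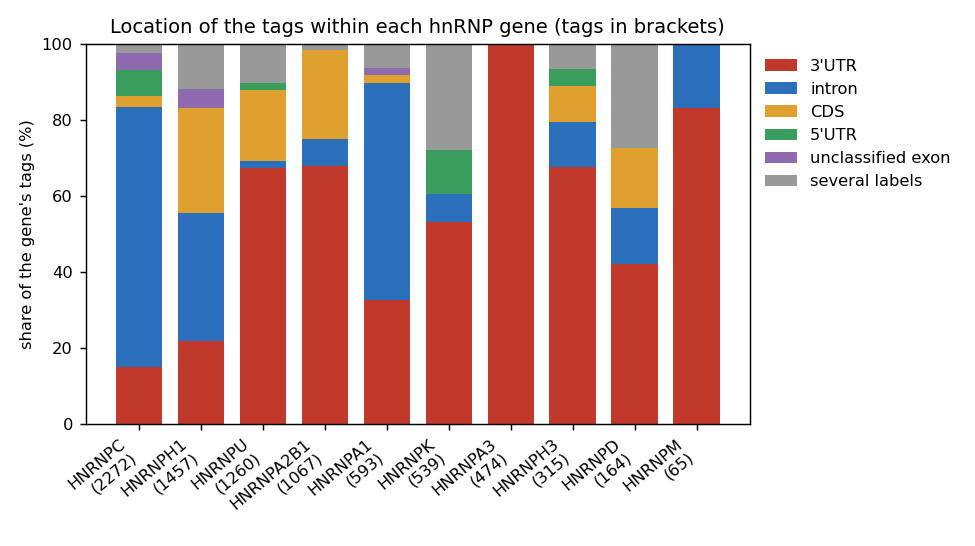
Share of each hnRNP gene's tags (vertical axis, %) by cluster label, in clusters of at least 10 tags, with the gene's tags in brackets. The intron share is 68.3% in HNRNPC, 57.2% in HNRNPA1 and 33.7% in HNRNPH1, while the 3'UTR share is 100% in HNRNPA3.

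HNRNPC encodes the C proteins, which form tetramers on nascent RNA and bind uridine tracts. Its clusters lay on the minus strand of chromosome 14, from 20747141 to 20806313. It had 514 tags in replicate 1 and 1789 in replicate 2, over 92 clusters. Introns held 66.9% and 68.9% of them, and the 3'UTR held 17.1% and 14.3%. The intron tags were not in a few peaks. Of 128 intron clusters of any size, 118 lay between the cluster labelled CDS and 5'UTR and the 5'UTR clusters, from 20772249 to 20800412. That stretch of 28.2 kb held 431 tags in replicate 1 and 1477 in replicate 2, or 96.3% of all intron tags of the gene. Its clusters had a median of 12 tags and at most 63.

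Downstream of the cluster labelled CDS and 5'UTR, HNRNPC intron clusters were sparse. Over 22.7 kb there were 9 intron clusters, with 15 tags in replicate 1 and 51 in replicate 2. On the scale of tags per 1000000 tags per kb, the upstream stretch had 15.3 in replicate 1 and 15.0 in replicate 2, and the downstream part had 0.661 and 0.643. These levels, which count the tags of intron clusters over the whole genomic stretch, did not overlap between the stretches. At the 5' end, 10 clusters labelled 5'UTR or unclassified exon held 254 tags between 20800425 and 20803104. The intron cluster with the most tags, at 20795181 to 20795384, had 17 and 46 tags in the replicates. The largest cluster of the gene was in the 3'UTR, at 20747721 to 20747984, with 31 and 65 tags. The CDS cluster with the most tags, at 20768316 to 20768442, had 4 and 29.

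HNRNPA1, HNRNPA2B1 and HNRNPA3 encode proteins of the A/B group, which shuttle between nucleus and cytoplasm and often repress exon inclusion. HNRNPA2B1 spanned 26196118 to 26205910 on the minus strand of chromosome 7. It had 206 tags in replicate 1 and 863 in replicate 2, with 68.9% and 67.4% of them in the 3'UTR. A single cluster at 26197942 to 26198513 had 108 and 445 tags, which was 51.8% of the gene. It was the 3'UTR cluster nearest to the coding sequence, and the other 10 of the 11 3'UTR clusters lay further downstream. CDS clusters held 21.8% and 23.9%, led by one at 26202953 to 26203215 with 11 and 61 tags. The intron cluster with the most tags, at 26204809 to 26204909, had 6 and 18.

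HNRNPA3, on the plus strand of chromosome 2, had 113 tags in replicate 1 and 361 in replicate 2. All 15 of its clusters with at least 10 tags were in the 3'UTR. The 26 3'UTR clusters of any size were spread over 3936 nt, from 177792775 to 177796711. The largest, at 177793258 to 177793585, had 43 and 157 tags, or 42.2% of the gene. Outside the 3'UTR there was only 1 deposited cluster, an intron cluster of 5 tags at 177789375 to 177789414.

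HNRNPA1 lay on chromosome 12, plus strand, from 52963846 to 52967137. It had 133 tags in replicate 1 and 460 in replicate 2. Introns held 54.9% and 57.8% of them, and the 3'UTR held 29.3% and 33.5%. All 6 intron clusters, with 339 tags, lay beyond the last 3'UTR cluster in the direction of transcription, from 52965562 to 52966590. The first of them started 3 nt after the last 3'UTR cluster. It was the largest cluster of the gene, with 33 and 130 tags, and the largest 3'UTR cluster, just before it at 52965282 to 52965559, had 32 and 107. No other member had an intron cluster beyond its last 3'UTR cluster. The canonical GENCODE 3'UTR of HNRNPA1 is 2543 nt long. The distance from the end of the cluster labelled CDS and 3'UTR to the end of the last cluster was 2616 nt. That last cluster was labelled unclassified exon, at 52967009 to 52967137. The 6 intron clusters ended before it, at 52966590. Measured from either end of the cluster labelled CDS and 3'UTR, that distance is shorter than the 2543 nt of the canonical 3'UTR. Whether these 6 clusters are intronic in the transcript that the cells make was not tested. If they are not counted as intron, the family's intron share is 27.4% and HNRNPC and HNRNPH1 are the genes with more intron than 3'UTR tags.

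HNRNPA1 has many processed copies in the genome, and tags from them may be exchanged with those of the gene. Within its span, on the same strand, 3 clusters were named for the pseudogene HNRNPA1P10, with 31 tags in replicate 1 and 38 in replicate 2. They lay between 52964529 and 52964995, after the cluster labelled CDS and 3'UTR, and are not counted in HNRNPA1. HNRNPA1 had 1 CDS cluster, at 52963846 to 52963935, with 4 and 9 tags.

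**Figure D4:**
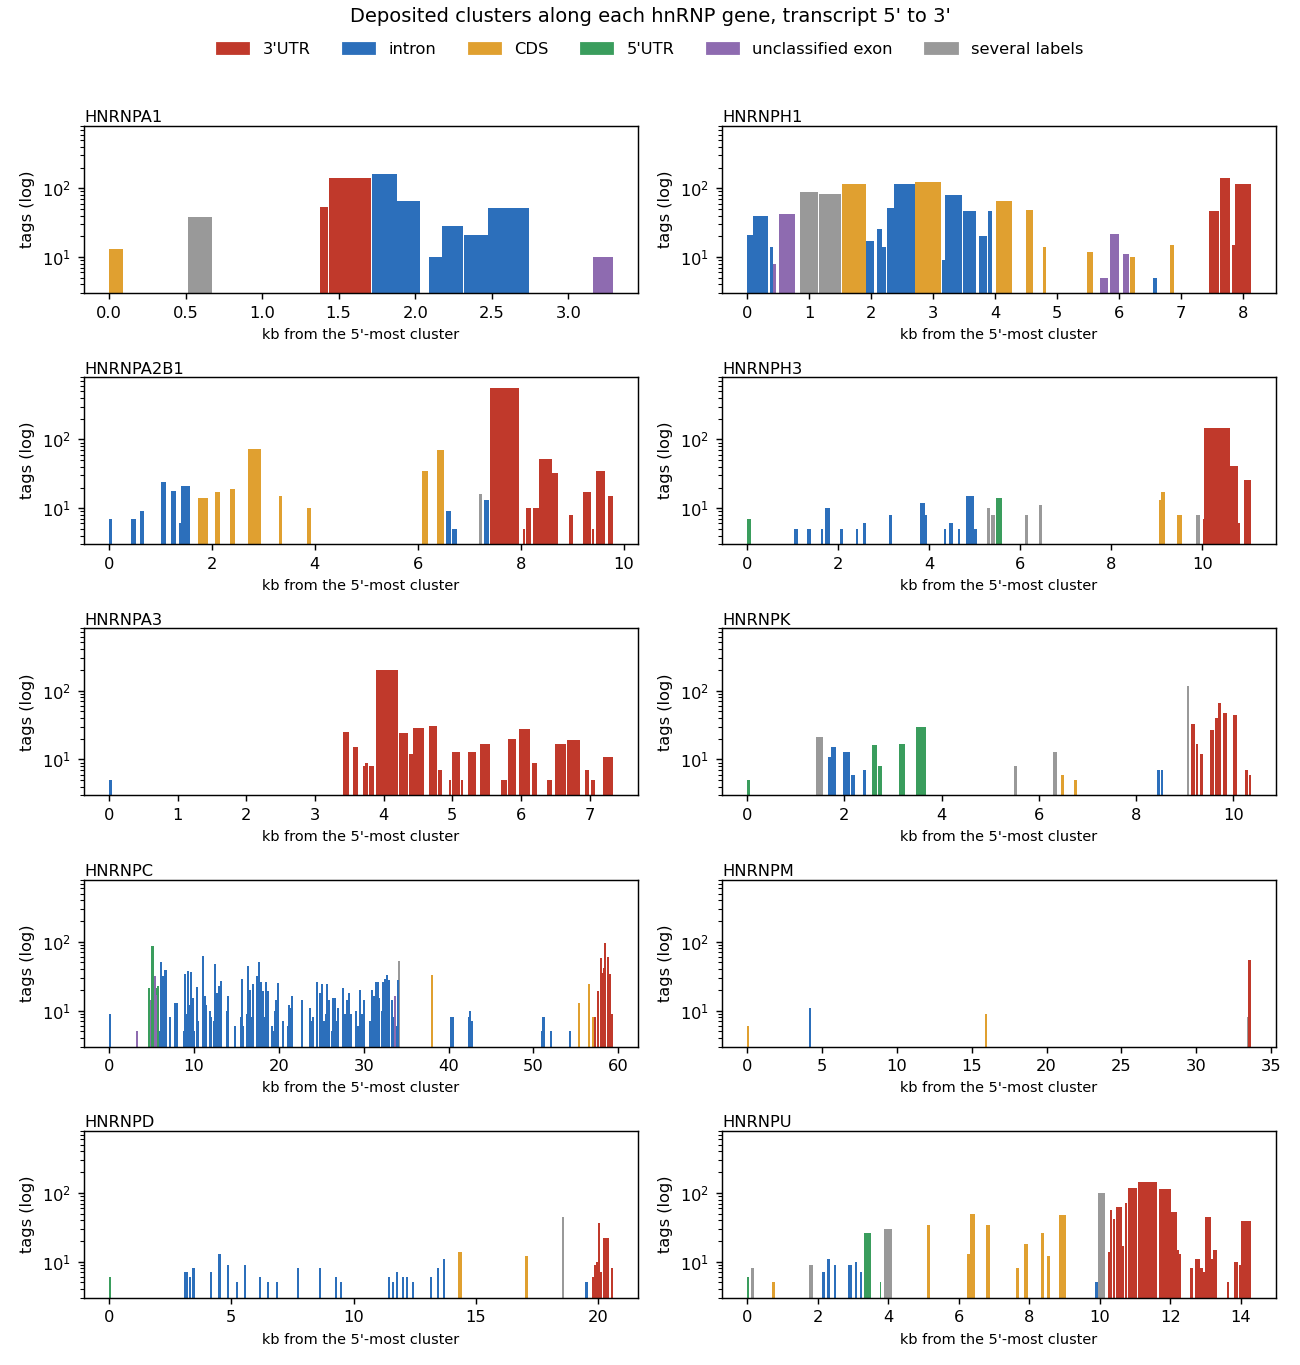
Deposited clusters along each hnRNP gene, with the distance from the 5'-most cluster in kb (horizontal axis) and the tags of each cluster (vertical log axis). Bars are as wide as the cluster, with a minimum width so that short ones can be seen, and colours give the label. HNRNPC shows intron clusters over 28.2 kb, HNRNPA2B1 a single 3'UTR cluster of 553 tags, and HNRNPA1 intron clusters at the 3' end.

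HNRNPH1 and HNRNPH3 encode proteins of the H/F group, which bind runs of guanosine and regulate splicing and polyadenylation. HNRNPH1, on the minus strand of chromosome 5 from 178973901 to 178982027, had 318 tags in replicate 1 and 1155 in replicate 2. Its tags were spread over regions, with 38.7% and 32.6% in introns, 22.6% and 29.2% in CDS, and 21.7% and 21.5% in the 3'UTR. Clusters covered 65.7% of its span, and the other genes' coverage was between 1.45% and 50.4%.

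The 5' part of HNRNPH1 was almost continuously covered. Stretches were defined as clusters at most 100 nt apart, a limit chosen after the data were seen. The longest stretch of HNRNPH1 ran from 178977748 to 178982027, over 4279 nt, with 20 clusters of which 13 were intronic. It had 223 tags in replicate 1 and 815 in replicate 2, or 68.8% of the tags of all its clusters. The longest stretch in the other members was between 266 nt in HNRNPM and 2437 nt in HNRNPU. In HNRNPH1 the intron cluster with the most tags, at 178979315 to 178979655, had 20 and 100 tags. The CDS cluster next to it, at 178978899 to 178979317, had 20 and 104. The largest cluster of the gene was in the 3'UTR, at 178974243 to 178974397, with 36 and 104 tags.

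HNRNPH3, on the plus strand of chromosome 10, had 54 tags in replicate 1 and 270 in replicate 2. The 3'UTR held 66.7% and 67.4% of them. Its largest cluster, at 69771933 to 69772496, had 23 and 128 tags, or 46.3% of the gene. Of its 15 intron clusters, 3 had at least 10 tags, and the highest, at 69766688 to 69766864, had 1 and 14. The CDS cluster with the most tags, at 69770968 to 69771061, had 1 and 18.

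HNRNPU encodes scaffold attachment factor A, which binds both RNA and chromatin. It spanned 243080127 to 243094407 on the minus strand of chromosome 1, with 268 tags in replicate 1 and 1004 in replicate 2. The 3'UTR held 67.9% and 67.6% of them. In place of a single peak there were 24 3'UTR clusters over 4062 nt, and the largest, at 243082786 to 243083338, had 23 and 123 tags or 11.6% of the gene. CDS clusters held 19.8% and 18.2%, led by one at 243087942 to 243088096 with 11 and 39 tags. The introns held 1.12% and 1.79%, with the highest cluster, at 243092055 to 243092128, at 1 and 10.

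Clusters also continued past the last cluster named for HNRNPU. Within 10 kb downstream of that cluster, on the same strand, there were 26 clusters labelled downstream and without a gene name. They had 86 tags in replicate 1 and 272 in replicate 2, the largest with 38. HNRNPA2B1 had 21 such clusters with 43 and 136 tags, HNRNPC had 9 with 18 and 60, and HNRNPD had 3 with 6 and 13. The other 6 genes had none in the table. No cluster on the opposite strand lay inside the span of any of the 10 genes.

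HNRNPK encodes a protein with KH domains that binds cytidine-rich RNA. On the minus strand of chromosome 9, it had 119 tags in replicate 1 and 428 in replicate 2, with 53.8% and 52.3% in the 3'UTR. The largest cluster, at 85774083 to 85774138, was labelled CDS and 3'UTR and had 24 and 92 tags. The largest cluster with the 3'UTR label alone, at 85773438 to 85773498, had 16 and 50. The 5'UTR held 8.40% and 12.6%, and the highest intron cluster, at 85781359 to 85781459, had 6 and 14 tags. Both CDS clusters were under 10 tags.

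HNRNPD encodes AUF1, which binds AU-rich elements in 3'UTRs and promotes mRNA decay. On the minus strand of chromosome 4, it had 36 clusters but only 8 with at least 10 tags, which held 37 tags in replicate 1 and 127 in replicate 2. The largest, at 83495479 to 83495587, was labelled CDS and 3'UTR and had 11 and 34 tags. The 3'UTR clusters held 32.4% and 44.9%, led by one at 83494016 to 83494120 with 7 and 30. The 25 intron clusters had between 5 and 13 tags each and were scattered over 16487 nt. The highest of them, at 83509517 to 83509629, had 2 and 11 tags, and the highest CDS cluster, at 83499650 to 83499839, had 4 and 10.

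HNRNPM encodes a splicing regulator that binds GU-rich RNA. On the plus strand of chromosome 19, it had 5 clusters over 33638 nt, and the 2 with at least 10 tags had 10 tags in replicate 1 and 55 in replicate 2. The 3'UTR cluster, at 8459782 to 8460001, had 6 and 48 tags. The intron cluster, at 8430492 to 8430569, had 4 and 7. Its 3'UTR share was 60.0% in replicate 1 and 87.3% in replicate 2, a difference that rests on these few tags.

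Base composition of the 3'UTRs was taken from the canonical transcripts. Thymidine made up between 30.9% and 42.3% of the 3'UTRs of the 10 genes, lowest in HNRNPA1 and highest in HNRNPM. The median was 35.9% over the hnRNP genes and 33.1% over 5304 genes.

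The split of tags between the libraries showed how evenly the members were measured. For each gene, the replicate 1 share of its tags in all clusters was compared with the share over all genes, 22.0%, by a two-sided exact binomial test with Benjamini-Hochberg adjustment over 7712 genes. Of all genes, 1.52% differed at an adjusted p under 0.05, and 0 of the 10 hnRNP genes did, with 0 also at an unadjusted p under 0.05. The shares ran from 17.0% in HNRNPM, with a Wilson 95% interval of 10.6% to 26.2%, to 24.2% in HNRNPA3, with 20.8% to 28.0%. The smallest adjusted p was 0.518, for HNRNPA2B1, with a share of 19.7%. A beta-binomial test also called 0 of the 10.

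Single clusters and regions were tested as well. Of all 233546 clusters, 0.0111% differed in their split by the exact binomial test, and 0 of the 403 hnRNP clusters did, although 14 had an unadjusted p under 0.05. The beta-binomial test called 0 of the 403 as well. Every deposited cluster has a tag in each replicate, and the adjustment ran over all clusters. A cluster of few tags could therefore not be called whatever its split, and only 237 of the 403 had at least 10 tags. For small clusters the 0 carries no information. The split of intron and 3'UTR tags between the libraries was compared by a two-sided Fisher's exact test in the 3014 genes with both. It differed in 0.166% of them and in 0 of the 10 hnRNP genes, with 0 at an unadjusted p under 0.05. The smallest adjusted p was 0.574, for HNRNPM. These tests compare the libraries and not conditions, and with few tags, as in HNRNPM, only a large difference could be called. Intervals cover counting error only.

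**Figure D5:**
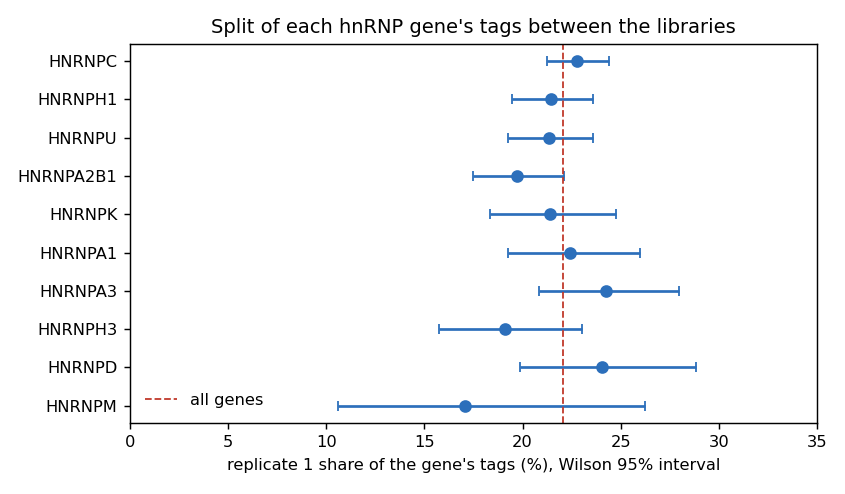
Replicate 1 share of each hnRNP gene's tags (horizontal axis, %), over all deposited clusters, with Wilson 95% intervals that cover counting error only. The dashed line is the share over all genes, 22.0%, and it lies within the interval of every hnRNP gene, the widest being that of HNRNPM.

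Other genes with an hnRNP name or alias were taken from a list of 23, of which 18 had deposited clusters and 5 had none under the symbols used. More than 100 tags were found for 12 of the 18, of which 17 had a cluster of at least 10 tags. Of all 5600 genes with such a cluster, 54.9% had more than 100. PTBP3 had 0.362 tags per 1000 in replicate 1 and 0.376 in replicate 2, PTBP2 had 0.240 and 0.261, PCBP1 had 0.153 and 0.164, SYNCRIP had 0.159 and 0.158, and HNRNPF had 0.126 and 0.155. The other 7 were PTBP1, PCBP2, HNRNPAB, HNRNPR, HNRNPUL1, HNRNPA0 and RBMX, with 108 to 344 tags. PTBP2, a neuronal homologue of the splicing repressor PTBP1, was the 1 gene of the 18 with more intron than 3'UTR tags, with 73.8% in introns. Over all 5181 genes with tags in either region, 20.3% had more intron than 3'UTR tags. In clusters of at least 10 tags, SYNCRIP, which encodes hnRNP Q, had 83.6% of its tags in the 3'UTR and none in introns. Its intron clusters were all under 10 tags.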

How the data were processed

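The authors collapsed HITS-CLIP reads to unique tags and grouped them into clusters. The submitters' processing notes name Novoalign and hg18, without versions. What the authors deposited were raw tag counts for every cluster, 1 column per replicate and a total. The replicate columns were mapped to the samples by name. Per-gene values use clusters of at least 10 tags and the deposited total. A cluster with several labels formed a class of its own.

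All 10 genes matched GENCODE v44lift37 by symbol and were used only for transcript length and base composition. None overlapped its GRCh37 position, so no coordinates or sequences were taken from that genome. Splits between the libraries were tested with exact binomial and Fisher's exact tests in scipy 1.17.1 under Python 3.11.15, adjusted over all features. The tests were checked on simulated data, with changes planted only where a cluster, gene or region had at least 100 tags. That check does not cover smaller clusters, genes or regions. All members are named, with the largest cluster of each gene and of its introns, CDS and 3'UTR, and the other listed hnRNP genes with more than 100 tags. Alternatives varied the minimum of tags, the columns, the labels, the expected share and the library left out. Members and lists were chosen with earlier results of these data known.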

Additional observations from a re-analysis of the deposited data

How the results depend on the processing

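No paired analysis was possible because the study has 1 group. With no minimum, with at least 30 tags, with every label counted and with HNRNPC left out, the 3'UTR share of 42.9% became 39.9%, 53.1%, 46.7% and 53.6%. The intron share of 31.6% became 35.7% with no minimum, 20.7% with at least 30 tags, 17.5% without HNRNPC and 27.4% with the HNRNPA1 clusters beyond the 3'UTR not counted. The CDS share of 12.5% became 20.0% with every label counted and 16.1% without HNRNPC. The median rank of 1160.5 became 1358 with no minimum and 957 with at least 30 tags. Leaving out each replicate in turn, and so counting fewer tags against the same minimum, gave 964 to 6213 hnRNP tags, 3'UTR shares of 43.9% to 51.2%, intron shares of 22.6% to 30.2%, CDS shares of 10.2% to 12.9%, 4 to 9 genes with more than 100 tags and median ranks of 807 to 1160. HNRNPM had no cluster of at least 10 tags in replicate 1 alone. The 26 clusters called over the table became 10 with a beta-binomial spread. The 117 genes called became 15 with clusters of at least 30 tags and 6 with a beta-binomial spread. The 5 genes whose regional split differed became 1 with every label counted and 0 with clusters of at least 10 tags. No hnRNP gene or cluster was called under any of these settings. The cause of these shifts was not tested, apart from the smaller number of tags when a library was left out. HNRNPC left out and the HNRNPA1 settings were chosen after seeing the data. The smaller library limits single clusters most.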
